A study of Mus musculus with 12 samples.

Results

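The sodium potassium pump was followed here through 6 genes, the beta subunit genes Atp1b1, Atp1b2 and Atp1b3 and the FXYD genes Fxyd1, Fxyd5 and Fxyd6, out of 54532 genes in a table of RNA sequencing counts from mouse 3T3-L1 cells. The members were read from the table by gene symbol, but they were selected on earlier results of these same counts, and which comparison led to them was not recorded. Their p-values therefore place each gene within the fit and are not independent support. The cells are a fibroblast-like mouse line that turns into fat cells under hormones, taken here as wild type cells of 1 line. There were 12 libraries in 4 groups of 3, all from day 6: untreated cells, cells induced with DMI (10 ug/ml insulin, 1 uM dexamethasone and 0.5 mM IBMX), DMI with luteolin, and DMI with quercetin. The labels carry one treatment text on every sample, the untreated ones too, and give no dose or exposure time for either compound. They do not say whether replicates were separate cultures, and a p-value below thus reflects only how these libraries vary, which may be technical.

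The pump is an enzyme of the plasma membrane that uses ATP to export sodium and import potassium, and the gradients it builds drive many other transporters. A catalytic alpha subunit carries out the transport. A glycosylated beta subunit is needed to fold the alpha subunit and bring it to the cell surface, and beta subunits also take part in contacts between cells. FXYD proteins are small membrane proteins that bind the assembled pump and tune its affinity for ions. Insulin is known to stimulate the pump in fat and muscle cells.

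Library totals ran from 14522182 to 19436796 counts, and 14855 genes, 4 of the 6 members among them, passed a filter on low counts. Levels below are CPM, the usual rate of a gene's counts within its library's total, scaled by the TMM method. Levels are compared between genes only as the authors' FPKM, which also divide by gene length. All 8 adipocyte marker genes were higher with DMI at an adjusted p under 0.05 by edgeR, where 14.7% of all genes tested were. Their summed level was 731 to 754 CPM in untreated libraries, 5886 to 21166 with DMI, 5541 to 13001 with luteolin added and 3037 to 6789 with quercetin added. Of 6 preadipocyte and fibroblast markers, 5 were lower with DMI at that threshold, where 12.4% of all genes tested were. The 6 summed to 41334 to 43153 CPM untreated and 17741 to 28246 CPM with DMI. The macrophage marker Adgre1 and the muscle markers Myod1, Myog and Ckm had 0 counts in all libraries. Des, the other muscle marker of the list, rose 10.8-fold with DMI (adjusted p = 0.00115 by edgeR), and the list summed to 1.27 to 2.24 CPM untreated and 8.43 to 25.9 CPM with DMI. The 6 macrophage, endothelial and epithelial markers summed to at most 1.71 CPM. The third library of each induced group had the lowest adipocyte marker sum of its group. Mitochondrial genes took 1.85% to 1.91% of counts in untreated libraries and 2.87% to 4.73% in induced ones.

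Promoter sequences were available for 5 of the 6 members, all but Atp1b2, in RefSeq's table on GRCm38.p6. The 2 shown are those of Atp1b1 and Fxyd1, a beta subunit and an FXYD gene whose mean levels stood in opposite directions after DMI. Each is the 250 bases before an annotated transcript start, on the gene's own strand (the minus strand for both), with motif matches in capitals. For Atp1b1 (chr1:164458356-164458605) the capitals mark GC boxes and a CCAAT box, all matched as the reverse complement. For Fxyd1 (chr7:31054854-31055103), whose RefSeq start lies inside the longer GENCODE gene, they mark a match to a C/EBP-type motif.
Atp1b1: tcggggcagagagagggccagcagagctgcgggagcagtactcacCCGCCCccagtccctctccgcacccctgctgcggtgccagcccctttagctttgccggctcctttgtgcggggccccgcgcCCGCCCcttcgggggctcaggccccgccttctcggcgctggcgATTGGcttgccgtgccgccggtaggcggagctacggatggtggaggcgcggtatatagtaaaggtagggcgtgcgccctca
Fxyd1: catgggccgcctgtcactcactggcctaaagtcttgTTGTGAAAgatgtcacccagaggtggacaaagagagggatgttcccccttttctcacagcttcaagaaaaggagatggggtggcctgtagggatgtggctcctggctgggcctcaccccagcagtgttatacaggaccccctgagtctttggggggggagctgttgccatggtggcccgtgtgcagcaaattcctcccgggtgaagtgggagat
Both strands were searched for the TATA box TATAAA, the CCAAT box CCAAT, the GC box GGGCGG, the glucocorticoid receptor half-site AGAACA and the C/EBP-type motif TTNNGNAA. Over 32851 RefSeq windows of the same length, TATAAA was held by 12.4%, CCAAT by 33.8%, GGGCGG by 32.7%, AGAACA by 16.1% and TTNNGNAA by 36.8%. Counted back from the start, the Atp1b1 window held the complement of the GC box at -205 and -124 and that of the CCAAT box at -81. The Fxyd1 window held TTGTGAAA at -214. The window before Fxyd6, a gene with 0 counts in all 12 libraries, also held overlapping C/EBP-type matches, at -84 and -83, and CCAAT at -159. The window before the outer start of Atp1b3 held 5 GC boxes and none of the other motifs. These matches describe the letters only.

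Atp1b1 (ENSMUSG00000026576; GRCm38 chr1:164437109-164458355, minus strand) encodes the beta 1 subunit, the most widespread of the beta subunits. Its level was 107, 104 and 107 CPM in the 3 untreated libraries. With DMI it was 31.1, 23.0 and 76.3 CPM. With luteolin added it was 46.4, 36.5 and 77.1 CPM, and with quercetin added it was 63.0, 81.8 and 135 CPM. The untreated libraries lay close together, and every DMI library and every luteolin library lay below all of them. How many of all genes separated groups in this way was not counted, here or for the members below. The quercetin libraries spread across the untreated level, with 2 below and 1 above. The means were 106 ± 1.66 CPM untreated, 93.4 ± 37.5 with quercetin, 53.3 ± 21.2 with luteolin and 43.5 ± 28.7 with DMI alone (SD, n = 3 each). Quercetin and untreated overlapped, as did each neighbouring pair among the 3 induced groups, and only the step from untreated to luteolin or DMI was wider than the spread. Of the 3081 exon bases, 575 (18.7%) are shared with Nme7 on the other strand, and whether counting used strand is not given. Per length, Nme7 itself had group means of 1.83 to 2.18 FPKM beside 14.2 to 33.4 FPKM for Atp1b1. In bulk RNA, fewer cells of a type and less RNA per cell cannot be told apart.

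**Figure D1:**
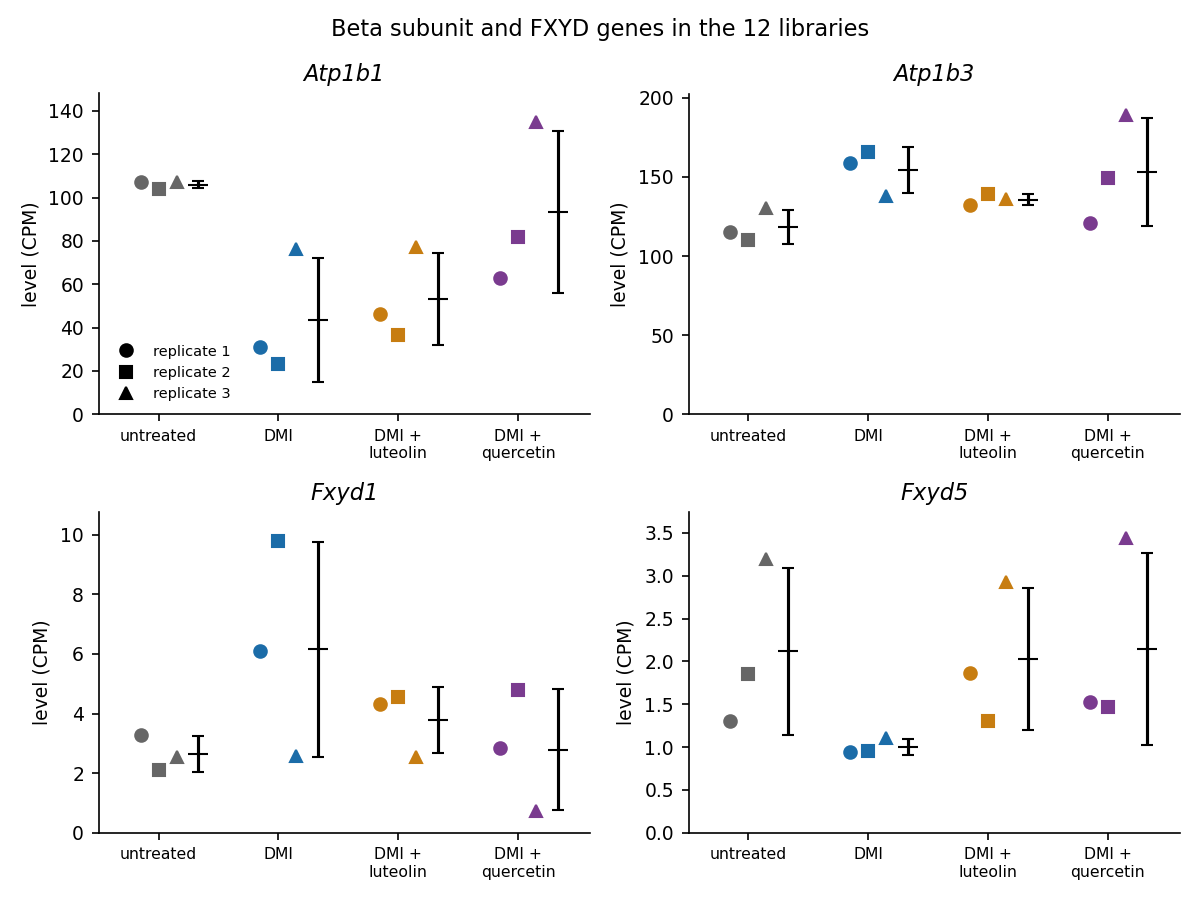
Level (CPM, linear axes from 0) of Atp1b1, Atp1b3, Fxyd1 and Fxyd5 in each of the 12 libraries by group; marker shape gives the replicate number, and the bar is the group mean ± SD (n = 3). Triangles, the third libraries, stand highest for Atp1b1 and Fxyd5 and lowest for Fxyd1 in all 3 induced groups.

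Atp1b3 (ENSMUSG00000032412; chr9:96332655-96364442, minus strand) encodes the beta 3 subunit, an alternative partner for the alpha subunit. Its level was 115, 110 and 130.3 CPM in untreated libraries and 159, 166 and 138 CPM with DMI. With luteolin added it was 132, 139 and 136 CPM, and with quercetin added it was 121, 149 and 189 CPM. All DMI and all luteolin libraries lay above all untreated ones, whereas the quercetin libraries overlapped them. The order of means was DMI (154 ± 14.7 CPM), quercetin (153 ± 33.7), luteolin (136 ± 3.04) and untreated (118 ± 10.6, SD, n = 3 each), and the induced groups overlapped one another.

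Atp1b2 (ENSMUSG00000041329; chr11:69599736-69605942, minus strand) encodes the beta 2 subunit, known from brain glia as an adhesion molecule. It had 35 counts in all 12 libraries together, 0 to 7 per library, and was not tested. The pooled level was 0.121 CPM in untreated libraries (exact Poisson 95% interval 0.0446 to 0.264), 0.171 CPM with DMI (0.0739 to 0.337), 0.183 CPM with luteolin (0.0837 to 0.348) and 0.221 CPM with quercetin (0.114 to 0.385). The intervals, which cover counting error only, overlapped throughout, so no difference was detectable at this depth. Of 6 neuron and glia markers, Sox10 had 0 counts, and the sum of the list was 2.53 to 7.33 CPM.

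Between the beta subunits, the make-up of the message shifted while its summed level moved less. The summed beta FPKM was 81.7 ± 4.65 in untreated libraries, 78.8 ± 3.79 with DMI, 74.1 ± 6.77 with luteolin and 93.9 ± 26.3 with quercetin (SD, n = 3 each). Atp1b1 made up 41.9%, 42.3% and 38.8% of that sum in untreated libraries. With DMI its share was 13.2%, 9.68% and 30.0%. With luteolin added the share was 21.3%, 16.9% and 30.6%, and with quercetin added it was 28.7%, 29.8% and 35.8%. Atp1b3 was thus the larger beta message in every library, at 57.7% to 61.1% untreated and 69.8% to 90.3% with DMI. Every induced library had a lower Atp1b1 share than every untreated one, the quercetin libraries included. The shares were not tested, since they are built from the same values as the levels.

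**Figure D2:**
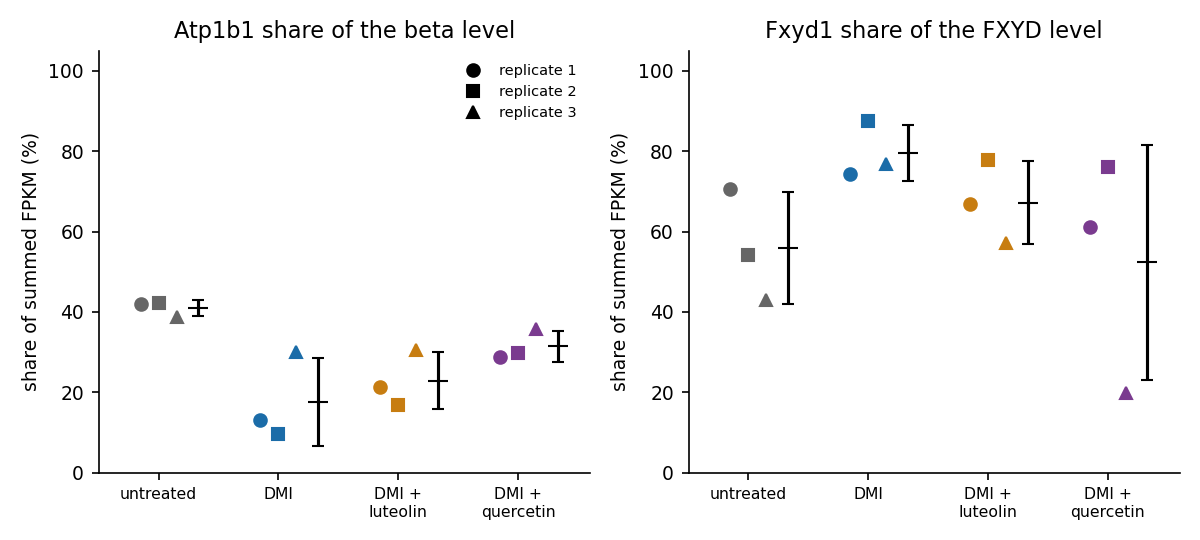
Share (%) of the summed beta FPKM held by Atp1b1, left, and of the summed FXYD FPKM held by Fxyd1, right, in each library by group; marker shape gives the replicate number, and bars are the mean ± SD (n = 3). The Atp1b1 share is 38.8% to 42.3% in untreated libraries and below that in all 9 induced ones, and the Fxyd1 share is lowest, at 19.8%, in the third quercetin library.

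The FXYD genes stood far lower. Fxyd1 (ENSMUSG00000036570; chr7:31051678-31057199, minus strand) encodes phospholemman, the FXYD protein of heart and skeletal muscle that restrains the pump until it is phosphorylated. Its level was 3.29, 2.09 and 2.54 CPM untreated and 6.10, 9.80 and 2.59 CPM with DMI. With luteolin added it was 4.31, 4.54 and 2.53 CPM, and with quercetin added 2.84, 4.80 and 0.736 CPM. The first and second DMI libraries were the highest of the 12 and the third lay among the untreated ones, so that all groups overlapped. The means ran from DMI (6.16 ± 3.61 CPM) through luteolin (3.79 ± 1.1) and quercetin (2.79 ± 2.03) to untreated (2.64 ± 0.61, SD, n = 3 each), with no neighbours apart beyond their spread. These levels rest on 12 to 143 counts per library.

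Fxyd5 (ENSMUSG00000009687; chr7:31032722-31042481, minus strand) encodes dysadherin, an FXYD protein with a long extracellular part that weakens adhesion between cells. Its level was 1.31, 1.85 and 3.20 CPM untreated and 0.944, 0.959 and 1.11 CPM with DMI. With luteolin added it was 1.86, 1.30 and 2.93 CPM, and with quercetin added 1.53, 1.47 and 3.44 CPM. The 3 DMI libraries were the lowest of all 12 and overlapped no other group, whereas untreated, luteolin and quercetin overlapped one another. The share of all genes with groups so separated was not counted. The means were 2.14 ± 1.12 CPM with quercetin, 2.12 ± 0.977 untreated, 2.03 ± 0.828 with luteolin and 1.0 ± 0.0908 with DMI (SD, n = 3 each). With 14 to 56 counts per library, these are the thinnest of the tested members, and the third library was the highest in all 4 groups.

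Fxyd6 (ENSMUSG00000066705; chr9:45370185-45396159, plus strand) encodes phosphohippolin, known from brain. It had 0 counts in all 12 libraries, where a floor of 3 counts corresponds to 0.152 CPM in the deepest library and 0.206 CPM in the shallowest. Fxyd5 and Fxyd1 are close neighbours on chromosome 7 with Fxyd7 between them, 31 bases from Fxyd5 and 210 bases from Fxyd1. They lie on the same strand, and DMI was the group with the highest mean for Fxyd1 and the lowest for Fxyd5. Of the summed FXYD level in FPKM, Fxyd1 made up 42.9% to 70.6% untreated and 74.4% to 87.4% with DMI, while Fxyd5 made up 14.6% to 28.2% and 4.46% to 17.1%. The summed beta FPKM was 33.0 to 45.3 times the summed FXYD FPKM in untreated libraries and 15.0 to 53.5 times it with DMI.

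DMI against untreated asks how the genes stood after hormonal induction. Atp1b1 fell 2.43-fold, a log2 fold change of -1.28 (SE 0.41, 95% interval -2.18 to -0.39, adjusted p = 0.0361, from edgeR's quasi-likelihood test with Benjamini-Hochberg adjustment over 14855 genes). It was the only one of the 4 tested members to pass the threshold of 0.05, where 27.1% of all genes tested passed. The call ended when any single untreated library was left out (adjusted p = 0.0786 to 0.0834), and without the first or second DMI library (0.143 and 0.142). Log2 fold changes in those fits were -1.30 to -0.98. Calls over all genes also fell there, from 4024 to 2377, 2388 and 2417 without an untreated library. They fell to 1948 and 1862 without the first and second DMI library. Without the third DMI library the log2 fold change of Atp1b1 was -1.97, and 5447 genes passed. In a fit of the 6 untreated and DMI libraries alone Atp1b1 lost the call (log2 -1.22, adjusted p = 0.0584) and Atp1b3 passed (log2 0.43, adjusted p = 0.0233), by edgeR. That fit called 4588 of all genes tested. Atp1b3 was 1.3-fold higher on average (log2 0.38, SE 0.15, interval 0.05 to 0.71, adjusted p = 0.0852) and did not pass. Fxyd1 (log2 1.22, SE 0.55, interval 0.02 to 2.42, adjusted p = 0.124) and Fxyd5 (log2 -1.07, SE 0.46, interval -2.07 to -0.08, adjusted p = 0.103) did not pass either. The median log2 fold change was -0.35 over the 4 members and -0.04 over all genes tested.

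Luteolin with DMI against DMI asks how the compound moved the induced cells. None of the 4 members passed, where 0.0202% of all genes tested passed. The log2 fold change was 0.29 for Atp1b1 (interval -0.59 to 1.18, adjusted p = 0.998), -0.18 for Atp1b3 (-0.51 to 0.15, adjusted p = 0.976), -0.69 for Fxyd1 (-1.86 to 0.48, adjusted p = 0.966) and 1.0 for Fxyd5 (0.01 to 2.0, adjusted p = 0.812), by edgeR. Only Fxyd5 of the 4 had an unadjusted p under 0.05 (0.049 by edgeR), where 904 of the 14855 genes tested had one. Its luteolin libraries all lay above all DMI ones, a separation that was not counted over all genes. With the replicate number as a block, 25 genes passed over the 12 libraries and 962 in the 6 libraries of the pair, in place of 3, and 0 of the members in either. In those 6 libraries with the block the log2 fold changes were 0.40 for Atp1b1 (adjusted p = 0.0886), -0.18 for Atp1b3 (0.221), -0.61 for Fxyd1 (0.17) and 0.97 for Fxyd5 (0.136), by edgeR. With the third libraries of the induced groups left out Atp1b1 passed, at a log2 fold change of 0.64 (adjusted p = 0.0175 by edgeR). That fit called 1550 of all genes tested, against 3 with all 12 libraries.

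Quercetin with DMI against DMI gave larger mean differences than luteolin for Atp1b1 and Fxyd1, a similar one for Fxyd5 and a smaller one for Atp1b3. Atp1b1 was 2.15-fold higher on average (log2 1.1, SE 0.41, interval 0.21 to 1.99, adjusted p = 0.156 by edgeR), and 2 of the 3 quercetin libraries lay above all DMI libraries. Fxyd5 was 2.11-fold higher on average (log2 1.08, interval 0.09 to 2.07, adjusted p = 0.201). Fxyd1 was lower on average (log2 -1.12, interval -2.31 to 0.07, adjusted p = 0.259), with -1.76 without the second quercetin library and -0.62 without the second DMI library, and Atp1b3 lay at -0.01 (-0.34 to 0.32, adjusted p = 0.981). None of the 4 passed, where 1.01% of all genes tested passed (0.162% higher and 0.848% lower). Atp1b1 and Fxyd5 had unadjusted p-values under 0.05 by edgeR (0.0191 and 0.0353), as did 3159 of the 14855 genes tested. Atp1b1 passed without the third DMI library (log2 1.79, adjusted p = 0.00594) and with the replicate number as a block (log2 1.19, adjusted p = 0.015), by edgeR. Those fits called 2597 and 1395 of all genes tested, against 150 with all 12 libraries and no block. With the third libraries left out, Atp1b1 (log2 1.44, adjusted p = 7.42e-06) and Fxyd1 (log2 -1.02, adjusted p = 0.016) passed by edgeR, where 5019 of all genes tested passed.

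Luteolin is a flavone and quercetin a flavonol, which carries a further hydroxyl group on the central ring. They form 1 pair of compounds, and because no dose is given their responses are set side by side, not at doses known to match. The mean level of Atp1b1 was 53.3 CPM with luteolin and 93.4 CPM with quercetin. The quercetin minus luteolin log2 difference was 0.81 (SE 0.41, interval -0.07 to 1.69, adjusted p = 0.559), so that anything from 0.95-fold to 3.23-fold lies within it. For Atp1b3 the difference was 0.18 (interval -0.16 to 0.51, adjusted p = 0.687), for Fxyd1 -0.43 (-1.63 to 0.77, adjusted p = 0.786) and for Fxyd5 0.07 (-0.86 to 1.01, adjusted p = 0.961), all by edgeR. No member passed and 0% of all genes tested passed, though 1327 genes had an unadjusted p under 0.05 and DESeq2 called 2 genes. With the third libraries left out Atp1b1 passed (log2 0.81, adjusted p = 0.00283 by edgeR), where 2085 of all genes tested passed, against 0 with all 12 libraries. The interval of Atp1b3 holds the pair within about 1.42-fold, while those of Atp1b1 and Fxyd5 reach 3.23-fold and 2.01-fold higher with quercetin, and that of Fxyd1 reaches 0.323-fold.

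**Figure D3:**
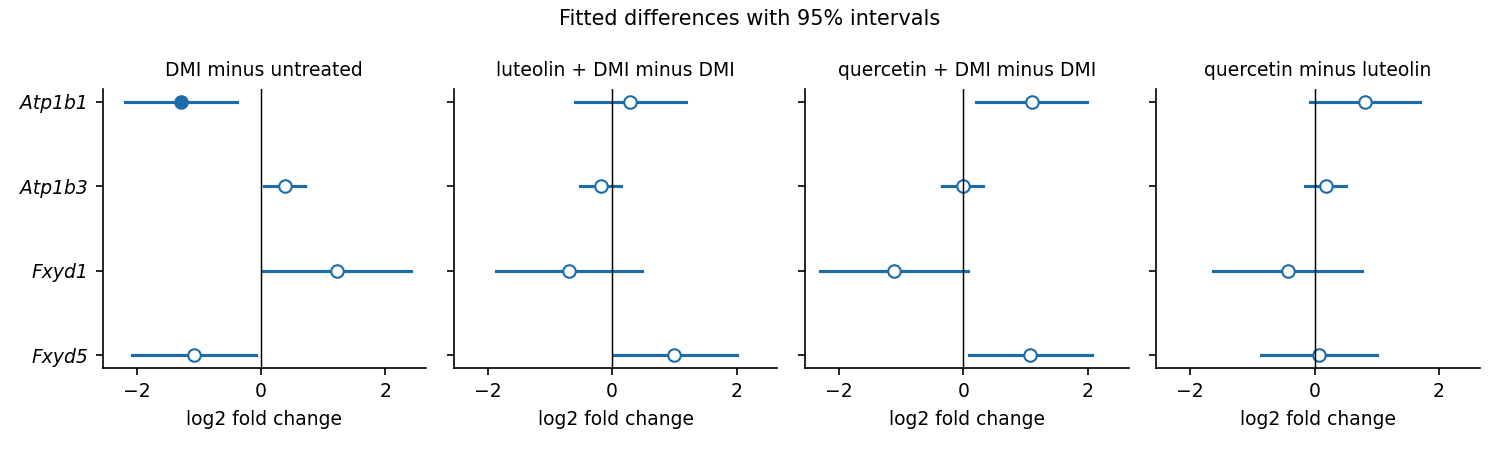
Fitted log2 fold change (horizontal axis) of the 4 tested members in the 4 comparisons, with 95% intervals; a filled point passed an adjusted p of 0.05. Only Atp1b1 in DMI minus untreated is filled, at -1.28, and the intervals of Atp1b3 are the narrowest throughout.

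Within each induced group, the third library had the highest Atp1b1 and Fxyd5 and the lowest Fxyd1. It also had the lowest sum of the 8 adipocyte markers. With DMI those sums were 18656, 21166 and 5886 CPM, with luteolin 11652, 13001 and 5541 CPM, and with quercetin 6789, 6591 and 3037 CPM. Sums of 5541 to 6789 CPM were found in every induced group. In that range Atp1b1 was 76.3 CPM in DMI replicate 3 and 77.1 CPM in luteolin replicate 3. It was 63.0 CPM in quercetin replicate 1 and 81.8 CPM in quercetin replicate 2, where the higher sum went with the lower level. The third quercetin library, at 135 CPM, stood above all untreated libraries although its marker sum exceeded theirs. The part of the marker level in these results was not tested. With the third libraries of the induced groups left out, all 4 tested members passed with DMI, at log2 fold changes of 0.49 for Atp1b3 (adjusted p = 0.000502), 1.63 for Fxyd1 (0.000185) and -1.11 for Fxyd5 (0.0397) by edgeR. In that fit 7880 of the 14855 genes tested passed, against 4024 with all 12 libraries, so passing was also far more common among all genes.

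**Figure D4:**
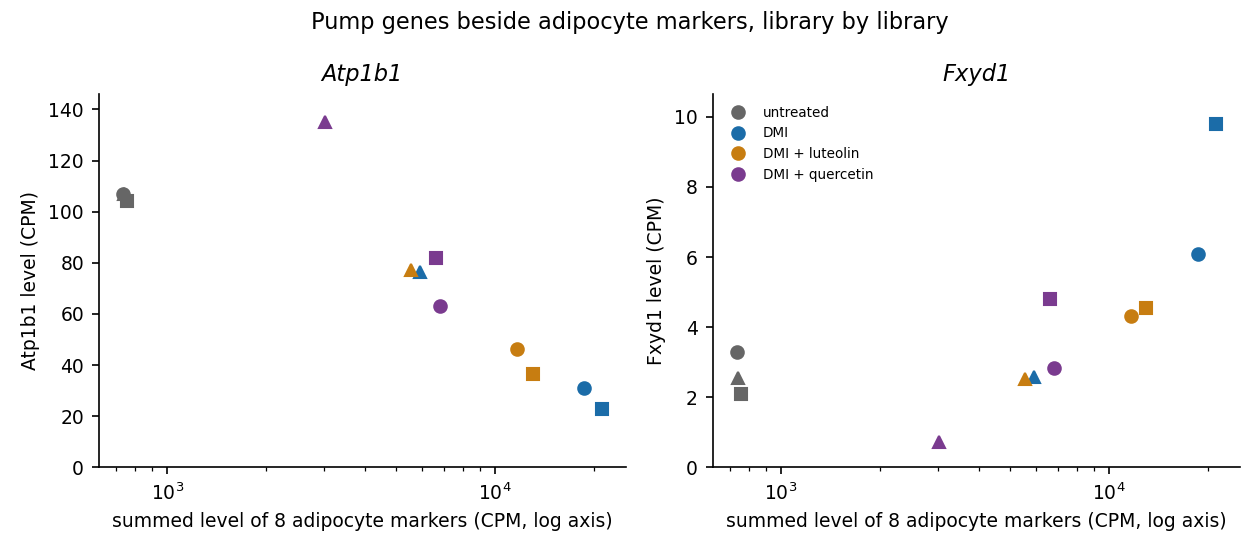
Level (CPM, linear axis) of Atp1b1, left, and Fxyd1, right, against the summed level of 8 adipocyte markers (CPM, log axis) in each of the 12 libraries; colour gives the group and shape the replicate number. Among induced libraries Atp1b1 is highest, at 135 CPM, where the marker sum is lowest, and Fxyd1 is highest, at 9.80 CPM, where it is highest.

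Of the other beta, FXYD and proton pump genes that were read, Fxyd4 was the only one to pass the low-count filter. It had 0.728 ± 0.113 CPM untreated and 0.461 ± 0.327 CPM with DMI (SD, n = 3 each), at 3 to 15 counts per library over the induced groups, and did not pass with DMI (log2 -0.67, adjusted p = 0.371 by edgeR), luteolin (0.36, adjusted p = 0.998) or quercetin (0.27, adjusted p = 0.802). Fxyd3 and Atp12a, a proton pump relative, had 0 counts in all libraries.

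Of 26 transporters that run on the sodium or potassium gradient, 24 were tested, and with DMI 6 were higher and 6 lower, with a median of -0.11, where 14.7% of all genes tested were higher and 12.4% lower. Slc4a4, a sodium bicarbonate cotransporter, rose 2.78-fold (adjusted p = 0.000282 by edgeR). Slc5a6, which takes up biotin and pantothenate, rose 10.2-fold (adjusted p = 0.000732), and Slc1a5, a glutamine carrier, rose 2.37-fold (adjusted p = 0.00165). Against DMI none of the 24 passed with either compound, and the medians were 0.0 with luteolin and 0.17 with quercetin.

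Of 21 genes listed as acting on the pump, its trafficking or ion cotransporters, 19 were tested. With DMI 5 were higher and 4 lower, with a median of 0.01, beside the same 14.7% and 12.4% of all genes tested. Cav1, the caveolin that organises pump-containing membrane pits and is abundant in fat cells, rose 14.3-fold (adjusted p = 0.000239 by edgeR). Stk39, a kinase of ion cotransporters, rose 1.84-fold (adjusted p = 0.00365), and Ank2, an ankyrin that anchors the pump, fell 2.5-fold (adjusted p = 0.00417). None of the 19 passed with either compound against DMI or between the compounds.

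The genes whose log2 CPM ran most like each member over the 12 libraries were found among about 10196 protein-coding genes at 5 CPM or more, as a description of libraries that share group and depth. For Atp1b1 they were Tubb5, a beta tubulin, and Emp1, a membrane protein, both at Pearson r = 0.992. Emp1 averaged 369 CPM untreated, 160 with DMI, 206 with luteolin and 326 with quercetin, the same order of groups as Atp1b1. For Atp1b3 they were Coq10b (r = 0.944) and Dnajc24 (r = 0.935), and for Fxyd1 Sphk2 (r = 0.958) and Hsd17b10 (r = 0.956). Those of Fxyd5 were less alike, Tulp3 at r = 0.862 and Pitrm1 at r = 0.856.

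In the authors' deposited table, DMI against untreated gave log2 fold changes of -1.23 for Atp1b1 (adjusted p = 0.00823), 0.43 for Atp1b3 (0.00725), 1.27 for Fxyd1 (0.0298) and -1.03 for Fxyd5 (0.0941). The signs were those of the fit above, and Atp1b3 and Fxyd1, which did not pass in that fit, were under 0.05 here. No member was under 0.05 in the other 3 comparisons. The share of all genes under 0.05 in the authors' comparisons was not counted, so these calls cannot be set against it.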

How the data were processed

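RNA of 3T3-L1 cells was sequenced in 12 libraries. Raw counts per gene were deposited. The submitters' processing notes name featureCounts 1.5.0-p3, CASAVA 1.8.2 and the build mm9; the aligner and strand setting are not given in the sources used here. Because 98.1% of gene positions in the table equal GENCODE M21, coordinates are given as GRCm38. The authors also deposited FPKM, used here for levels compared between genes, sums and shares, and log2 fold changes and p-values of their own comparisons, made with a tool that the sources used here do not name. All 27 date-like symbols were restored by gene identifier.

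The test of counts was edgeR 4.0.16 under R 4.3.3 (filterByExpr, TMM, quasi-likelihood, 1 term per group over 12 libraries, Benjamini-Hochberg adjustment over 14855 genes in each comparison, threshold 0.05). The standard error is the size of the log2 fold change over the square root of F. The step was checked on simulated data. Alternatives used DESeq2 1.42.0, limma 3.58.1 (voom), other scalings, filters and subsets of libraries, and a replicate block. Same-numbered libraries deviated together for luteolin and DMI (r = 0.261, 0.337 and 0.59), each over 0.1. The second luteolin library nevertheless ran most like a DMI library of another number. The values with the block are given beside the luteolin comparison, whose test has no block. The labels do not say what a number marks. Replicates of a group always differed by more than sampling noise (lowest chi-square per gene 2.75).

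The members, lists and alternatives were chosen with earlier results of these data known. All members are named, with pump subunit genes, up to 3 called genes with the lowest adjusted p of each other list and comparison, and the 2 protein-coding genes most like each member. In the list of genes acting on the pump, its trafficking or ion cotransporters, Camlg was read as Caml. Get1 was left out, as its symbol matched no single row. Some other pump subunit genes are not reported here.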

Additional observations from a re-analysis of the deposited data

How the results depend on the processing

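The count of members passing 0.05 was 1 for DMI against untreated and 0 for the other comparisons. For DMI it was 2 under DESeq2, on library totals only, under a filter of 1 CPM in 3 libraries or with no low-count filter, 4 when the third libraries of the induced groups were left out, and 0 to 3 with 1 library left out. It was 1 (Atp1b1) for luteolin without the third libraries, and 0 with any 1 library left out. For quercetin against DMI it was 2 with no low-count filter or without the third libraries, and 0 to 1 with 1 library left out. Between the compounds it was 1 with no low-count filter or without the third libraries.

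With the replicate block, 2 members passed for DMI against untreated (Atp1b1 and Fxyd5) and 1 (Atp1b1) for quercetin against DMI, the latter also in the 6 libraries of the pair with the block. The numbers did not meet the pairing rule in those comparisons, and the block changed no member's call for luteolin or between the compounds.

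Some signs turned near 0 or with 1 library left out. Atp1b3 with quercetin against DMI was 0.021 on library totals only and -0.17 to 0.13 with 1 library left out. Atp1b1 with luteolin against DMI ran from -0.07 to 0.98 in those fits. Between the compounds the ranges were -0.0023 to 0.32 for Atp1b3, -1.07 to 0.0069 for Fxyd1 and -0.43 to 0.43 for Fxyd5, and without the third libraries Atp1b3 was -0.0011 and Fxyd5 -0.078. The cause was not tested. Over the 4 tested members, 309 alternative fold changes kept direction and side of the threshold, 6 lost the call, 24 gained one and 13 changed sign.

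Over all genes tested, the 4024 calls of DMI against untreated became 7880 without the third libraries and 1862 to 5499 with 1 library left out. They became 4432 with DESeq2, 3826 on library totals only and 3789 with 1 CPM in 3 libraries. With no low-count filter they became 4303, and with the replicate block 4662. The 3 calls for luteolin became 363 with no low-count filter, 48 with DESeq2, 0 with limma-voom, 25 with the replicate block, 0 in the 6 libraries of the pair, 962 in those with the block, 1550 without the third libraries and 0 to 254 with 1 library left out (254 without the third DMI library). The 150 for quercetin became 59 on library totals only, 1737 with no low-count filter, 55 with 1 CPM in 3 libraries, 984 with DESeq2, 1 with limma-voom, 1395 with the replicate block, 0 in the 6 libraries of the pair, 690 in those with the block, 5019 without the third libraries and 0 to 2597 with 1 library left out (0 without the first or second DMI library, 2597 without the third). The 0 between the compounds became 450 with no low-count filter, 14 with the replicate block, 47 in the 6 libraries with the block, 0 to 10 with 1 library left out and 2085 without the third libraries. The low counts of Fxyd5, Atp1b2 and Fxyd6 limit what can be read from them.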
